A study of Mus musculus with 15 samples.

Results

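The eIF4F genes encode the machinery that recognises the cap at the 5′ end of an mRNA and recruits the ribosome to it, and 10 of them were followed among the 37310 genes of the deposited count table: Eif4e, Eif4e2, Eif4g1, Eif4g2, Eif4g3, Eif4a1, Eif4a2, Eif4b, Eif4h and Eif4ebp1. They were chosen by symbol, and each symbol matched 1 row of the table. The set was put together because Eif4g3 RNA is much lower in the Myc knockout, so every value of that comparison is given for these genes as a description, without a test. RNA was sequenced from J1 mouse embryonic stem cells kept in serum-containing medium with leukaemia inhibitory factor (LIF), as ribosomal RNA-depleted total RNA made into directional libraries. There were 15 libraries in 5 groups of 3: Taf5l knockout (Taf5l-KO), Taf6l knockout (Taf6l-KO) and their wild type (WT-Taf) in a first experiment, and c-Myc knockout (cMyc-KO) and its own wild type (WT-Myc) in a second. All groups have the J1 line in common and no treatment is labelled. The descriptions of the 3 cMyc-KO libraries carry a common code that is not explained there. Nothing in the labels says that replicates are independent cultures or clones, and the p-values therefore describe library-to-library spread, which may be technical.

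In eIF4F, the cap-binding protein eIF4E, the scaffold eIF4G and the RNA helicase eIF4A act as a unit: eIF4G holds eIF4E and eIF4A together and bridges them to the ribosome through eIF3. The cofactors eIF4B and eIF4H stimulate the helicase, and 4E-BP1, the product of Eif4ebp1, takes the place of eIF4G on eIF4E unless it is phosphorylated by the kinase complex mTORC1. Eif4g2 encodes a relative of eIF4G that lacks the eIF4E-binding region, and Eif4e2 encodes a cap-binding relative of eIF4E, known as 4EHP, that does not bind eIF4G and is known for repressing translation. The SAGA complex, a transcriptional coactivator, contains TAF5L and TAF6L, and the transcription factor MYC is known, paired with MAX, to bind the letters CACGTG.

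Promoters of 8 of the 10 genes were present in the RefSeq table used here (build GRCm38.p6), as windows from 250 bases before to 50 bases after the annotated start of transcription. Those of 4 genes are shown, all read 5′ to 3′ along the gene's own strand: Eif4g3, because its RNA was much lower in cMyc-KO, its relative Eif4g1, because its RNA was not, and the helicase pair Eif4a1 and Eif4a2, because both were higher in Taf6l-KO. Capitals mark each CACGTG, which reads the same on both strands. The Eif4g3 window is chr4:137993205-137993504 (plus strand), the Eif4g1 window chr16:20672477-20672776 (plus strand), the Eif4a1 window chr11:69672374-69672673 (minus strand) and the Eif4a2 window chr16:23107218-23107517 (plus strand).
Eif4g3: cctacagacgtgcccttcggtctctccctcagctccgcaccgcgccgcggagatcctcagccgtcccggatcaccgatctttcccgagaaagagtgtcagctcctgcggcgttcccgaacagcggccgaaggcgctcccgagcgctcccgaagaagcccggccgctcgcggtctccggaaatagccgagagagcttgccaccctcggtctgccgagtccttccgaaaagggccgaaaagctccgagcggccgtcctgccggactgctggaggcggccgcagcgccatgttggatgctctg
Eif4g1: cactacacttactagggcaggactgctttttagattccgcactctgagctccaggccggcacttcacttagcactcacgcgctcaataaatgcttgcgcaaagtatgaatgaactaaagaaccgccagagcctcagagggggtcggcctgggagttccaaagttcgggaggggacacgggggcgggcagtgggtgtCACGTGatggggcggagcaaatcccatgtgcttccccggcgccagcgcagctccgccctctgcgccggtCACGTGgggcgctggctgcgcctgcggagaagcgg
Eif4a1: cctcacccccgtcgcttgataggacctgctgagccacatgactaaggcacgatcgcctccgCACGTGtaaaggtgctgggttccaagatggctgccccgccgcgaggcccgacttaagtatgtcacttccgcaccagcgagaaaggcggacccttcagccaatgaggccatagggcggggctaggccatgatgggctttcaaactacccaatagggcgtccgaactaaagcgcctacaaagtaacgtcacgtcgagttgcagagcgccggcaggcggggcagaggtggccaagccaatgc
Eif4a2: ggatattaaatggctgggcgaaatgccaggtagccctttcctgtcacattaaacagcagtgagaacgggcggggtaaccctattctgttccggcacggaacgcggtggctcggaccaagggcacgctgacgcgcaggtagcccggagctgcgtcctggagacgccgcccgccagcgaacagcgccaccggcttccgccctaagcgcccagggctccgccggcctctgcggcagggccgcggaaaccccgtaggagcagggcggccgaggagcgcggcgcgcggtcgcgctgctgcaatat
CACGTG occurred in the windows of 4 of these 8 genes, and in those of 2187 of the 27025 genes with any entry (8.09%). The Eif4g1 window holds it at positions -54 and 15 relative to the start, the Eif4a1 window at -189, the Eif4h window at -96, and the second of the Eif4e entries at -228 and -64. Eif4e2, Eif4g3, Eif4a2 and Eif4b have windows without those letters, which says only that the letters are not in these stretches. A match of letters is a description and not evidence of binding.

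Sequencing gave 14935631 to 27650813 counts per library, and each of the 10 genes passed the filter on low counts in all comparisons. Taf5l RNA lay between 41.7 and 43.0 CPM (counts scaled to library size) in Taf5l-KO, against 84.5 to 88.1 CPM in WT-Taf. Taf6l RNA lay between 6.06 and 7.17 CPM in Taf6l-KO, against 25.2 to 26.8 CPM in WT-Taf. Myc RNA lay between 28.0 and 30.98 CPM in cMyc-KO, against 64.7 to 68.8 CPM in WT-Myc, so each knockout had less RNA of its own target in every library. Myc RNA was also lower in both Taf knockouts, with log2 fold changes of -0.69 in Taf5l-KO and -0.83 in Taf6l-KO. Taf6l RNA was lower in Taf5l-KO (-0.35, edgeR adjusted p = 0.00126), while Taf5l RNA did not pass the test in Taf6l-KO (0.06, edgeR adjusted p = 0.179). In cMyc-KO, Taf5l RNA was lower (-0.19, edgeR adjusted p = 0.0279) and Taf6l RNA was not called (0.07, edgeR adjusted p = 0.533). The cMyc-KO replicate 3 stood apart: its counts differed from those of replicates 1 and 2 by 36.4 and 26.3 (chi-square over degrees of freedom), while those 2 libraries differed by 5.07, and the cMyc-KO values of the 10 genes are given with and without it. The summed CPM of 9 pluripotency markers was 4396 to 4489 in Taf5l-KO and 4365 to 4452 in Taf6l-KO, against 4969 to 5053 in WT-Taf. It was 6979 to 7217 in cMyc-KO and 6288 to 6471 in WT-Myc. Of these 9 markers, 1 was called higher and 5 lower in Taf5l-KO, 7 lower in Taf6l-KO and 4 higher in cMyc-KO. Sox2 had higher means in both Taf knockouts, at 436 and 411 CPM, against 390 CPM. In cMyc-KO, Pou5f1 (1398 against 1399 CPM) and Sox2 (573 against 568 CPM) hardly moved, while Dppa5a averaged 1085 against 770 CPM. Endoderm markers summed to at most 10.6 CPM and feeder fibroblast markers to at most 13.9 CPM in any library, and mesoderm markers to at most 7.25 CPM, with the fibroblast genes Dcn and Lum at 0 counts in every library. Trophectoderm markers summed to 27.5 to 28.9 CPM in Taf5l-KO and 30.2 to 31.9 CPM in Taf6l-KO, against 22.4 to 23.96 CPM in WT-Taf. In cMyc-KO they summed to 41.4 to 46.3 CPM, against 24.3 to 27.99 CPM in WT-Myc. That cMyc-KO sum followed the keratin genes Krt8 (mean 25.6 against 13.8 CPM) and Krt18 (14.6 against 7.42 CPM). Ascl2 went the other way, at 2.16 against 3.52 CPM, and Elf5, Cdx2 and Krt7 also had lower means in cMyc-KO. Neuroectoderm markers summed to 54.1 to 58.8 CPM in Taf5l-KO and 65.6 to 70.002 CPM in Taf6l-KO, against 83.2 to 87.2 CPM in WT-Taf, and to 80.04 to 93.5 CPM in cMyc-KO, against 116 to 123 CPM in WT-Myc. In the Taf experiment these sums followed Tubb3, at means of 44.97 CPM in Taf5l-KO and 55.3 CPM in Taf6l-KO, against 78.3 CPM in WT-Taf. Nes went the other way, at 7.64 and 8.84 CPM, against 4.89 CPM, and so did Pax6. Of 3 neuroectoderm markers tested, 2 were called higher and 1 lower in each Taf knockout. Their median log2 fold changes were 0.64 in Taf5l-KO and 0.84 in Taf6l-KO. Mesoderm markers summed to 5.37 to 5.94 CPM in Taf5l-KO and 5.74 to 7.25 CPM in Taf6l-KO, against 3.88 to 4.82 CPM in WT-Taf. For feeder fibroblast markers these values were 9.26 to 10.8 and 10.8 to 11.5 CPM, against 12.2 to 13.9 CPM. That sum followed Thy1, at means of 3.59 and 3.77 CPM, against 6.96 CPM. Twist1 had higher means in the knockouts, at 1.54 and 1.79 CPM, against 1.11 CPM. Endoderm markers gave 6.47 to 6.83 and 7.12 to 7.49 CPM, against 7.24 to 8.95 CPM, with overlap only for Taf6l-KO. Gata4 went the other way, at means of 3.47 and 3.73 CPM, against 2.01 CPM. Of 5 endoderm markers tested, 1 was called higher and 3 lower in each Taf knockout. In the Myc experiment the mesoderm, feeder and endoderm sums overlapped between the groups. The part of the marker sums that moved with the groups in the values below was not tested. In RNA from whole cultures, fewer cells with a transcript and less of it per cell cannot be told apart.

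In Taf5l-KO, 3 of the 10 genes were higher than in WT-Taf (Eif4g1, Eif4g3 and Eif4a2), 3 were lower (Eif4e, Eif4e2 and Eif4ebp1), and 4 did not pass the test, which was edgeR's quasi-likelihood test with Benjamini-Hochberg adjustment over all genes and a threshold of 0.05. Of all 15743 genes tested, 33.2% were called in that comparison, 17.4% as higher and 15.9% as lower. In Taf6l-KO against WT-Taf, 2 genes were higher (Eif4a1 and Eif4a2) and 4 were lower (Eif4e2, Eif4g1, Eif4g2 and Eif4ebp1), where 37.2% of all genes were called, 19.1% as higher and 18.2% as lower. The median log2 fold change of the 10 genes was 0.02 in Taf5l-KO and -0.09 in Taf6l-KO, beside 0.00 and 0.02 over all genes. Both knockouts are set against the same 3 wild-type libraries, so these counts are not independent of each other. With Taf6l-KO set directly against Taf5l-KO, 2 genes were higher and 4 were lower, where 18.7% of all genes were called, 8.55% as higher and 10.1% as lower. In cMyc-KO against WT-Myc, where 34.8% of 14563 genes passed the threshold, 2 of the 10 did, Eif4e2 as higher and Eif4g3 as lower. That count is a description and no test of the 10 genes, and nothing is read from it, because the set was chosen with this comparison in view.

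**Figure D1:**
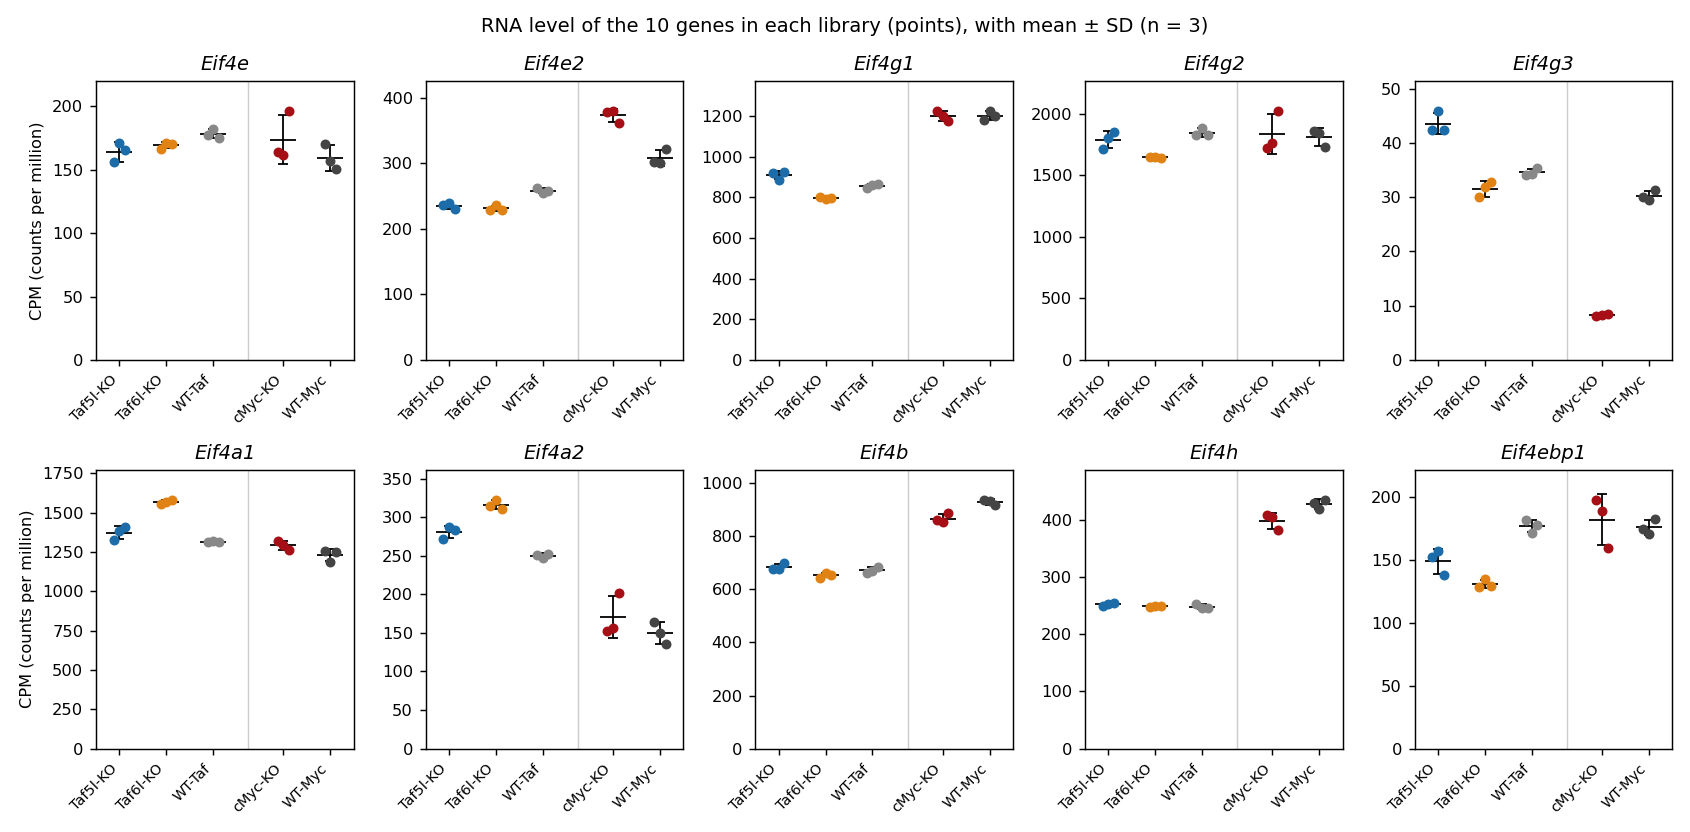
RNA levels of the 10 genes in CPM (vertical axes, each starting at 0), by group along the horizontal axis; points are libraries and bars are the mean ± SD of 3 libraries. Eif4g3 lies between 8.12 and 8.39 CPM in the cMyc-KO libraries and between 29.5 and 31.3 CPM in the WT-Myc libraries, while no other of the 10 genes shows so large a fold between a knockout and its wild type.

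Of the scaffold genes, Eif4g3 (ENSMUSG00000028760, chromosome 4) was higher in Taf5l-KO and much lower in cMyc-KO, each beside its own wild type. It encodes eIF4GII, a scaffold that can stand in for eIF4GI, the product of Eif4g1. In cMyc-KO it was measured at 8.12, 8.23 and 8.39 CPM, against 30.1, 29.5 and 31.3 CPM in WT-Myc. Every cMyc-KO library was far below every WT-Myc library, and the counts behind these values were 201, 187 and 230 in cMyc-KO and 527, 639 and 743 in WT-Myc. The log2 fold change was -1.88 ± 0.066 (SE), or 3.67-fold lower, which placed Eif4g3 at rank 112 from the lowest of the 14563 genes tested. Leaving out cMyc-KO replicate 3 gave -1.87 ± 0.079.

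In Taf5l-KO, Eif4g3 was measured at 42.4, 45.9 and 42.4 CPM, against 34.2, 34.2 and 35.4 CPM in WT-Taf. All 3 Taf5l-KO libraries were above all 3 WT-Taf libraries, and the log2 fold change was 0.34 ± 0.049 (edgeR adjusted p = 0.000116). Taf6l-KO had 30.0, 31.9 and 32.8 CPM, all below the wild-type libraries, but with a log2 fold change of -0.13 ± 0.050 the difference did not pass the test (edgeR adjusted p = 0.0530). Leaving out Taf6l-KO replicate 3 brought that adjusted p to 0.0435, and RLE scaling to 0.0383. Directly compared, Taf6l-KO had less Eif4g3 RNA than Taf5l-KO, by a log2 fold change of -0.47 ± 0.049 (edgeR adjusted p = 3.01e-05), the largest difference among the 10 genes in that comparison. On the authors' FPKM values this difference was -0.79, and the Taf5l-KO rise was 0.50 with a limma adjusted p = 0.0599.

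Eif4g1, the main scaffold gene, showed no such gap in the Myc experiment. In cMyc-KO it was measured at 1226, 1203 and 1179 CPM, against 1179, 1226 and 1203 CPM in WT-Myc, values that match only once rounded, from 30356, 27344 and 32303 counts in cMyc-KO and 20640, 26528 and 28592 in WT-Myc. The groups overlapped fully, with a log2 fold change of -0.00 ± 0.040 and a nominal 95% interval from -0.08 to 0.08. Without cMyc-KO replicate 3 the log2 fold change was 0.03 ± 0.039. In the Taf experiment it was measured at 921, 886 and 923 CPM in Taf5l-KO, at 804, 794 and 796 CPM in Taf6l-KO, and at 847, 862 and 865 CPM in WT-Taf. The Taf5l-KO libraries were the highest, the Taf6l-KO libraries the lowest and the wild-type libraries lay between them. The log2 fold change was 0.09 ± 0.029 in Taf5l-KO (edgeR adjusted p = 0.0345) and -0.10 ± 0.029 in Taf6l-KO (edgeR adjusted p = 0.0106), and -0.19 ± 0.029 for Taf6l-KO against Taf5l-KO (edgeR adjusted p = 0.000459). The small rise in Taf5l-KO was lost on leaving out Taf5l-KO replicate 1 or 3 or any of the 3 WT-Taf libraries (edgeR adjusted p = 0.0633 to 0.118), and the fall in Taf6l-KO was lost when library totals replaced TMM scaling (edgeR adjusted p = 0.494). Over all 15 alternative settings of the processing, the rise stayed called in only 3 and the fall in 11.

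Eif4g2, the relative without the eIF4E-binding region, was measured at 1648, 1649 and 1640 CPM in Taf6l-KO, against 1824, 1885 and 1831 CPM in WT-Taf. All Taf6l-KO libraries were lower than all wild-type libraries, and the log2 fold change was -0.17 ± 0.033 (edgeR adjusted p = 0.00113; adjusted p = 0.0630 with library totals). In Taf5l-KO its log2 fold change was -0.05 ± 0.033 (edgeR adjusted p = 0.314), with libraries at 1713, 1800 and 1852 CPM that overlapped the wild type. Taf6l-KO was also below Taf5l-KO, by -0.12 ± 0.033 (edgeR adjusted p = 0.0198), a call lost on leaving out Taf5l-KO replicate 2 or 3 or Taf6l-KO replicate 2 or 3 (edgeR adjusted p = 0.0573 to 0.0680). In cMyc-KO the level was 1718, 1761 and 2023 CPM, against 1863, 1843 and 1729 CPM in WT-Myc, and replicate 3 was the only cMyc-KO library above its wild type's highest. Its log2 fold change was 0.02 ± 0.068 with that library and -0.04 ± 0.041 without it.

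**Figure D2:**
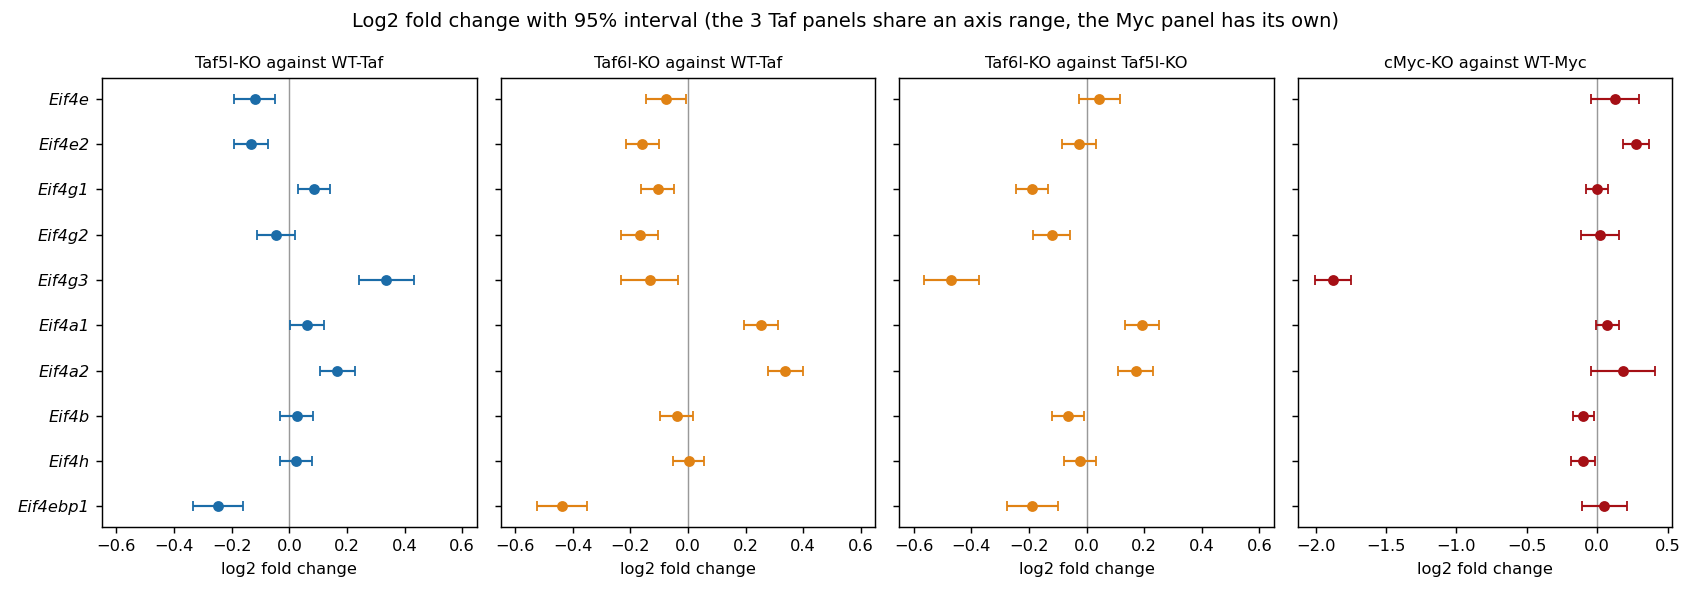
Log2 fold change (horizontal axes) of each of the 10 genes (rows) in 4 comparisons, with points at the estimate and bars over the 95% interval. The first 3 panels use a common range and the last, cMyc-KO against WT-Myc, has a wider one because Eif4g3 lies at -1.88 there.

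Of the helicase genes, Eif4a1 rose in Taf6l-KO and Eif4a2 rose in both Taf knockouts. Eif4a1 (ENSMUSG00000059796, chromosome 11) encodes the main eIF4A of growing cells, and was measured at 1553, 1567 and 1584 CPM in Taf6l-KO, against 1314, 1324 and 1312 CPM in WT-Taf. Every Taf6l-KO library was above every wild-type library, with a log2 fold change of 0.25 ± 0.030 (edgeR adjusted p = 1.43e-05). In Taf5l-KO, at 1329, 1382 and 1409 CPM, the libraries were also all above the wild type, but a log2 fold change of 0.06 ± 0.030 did not pass the test (edgeR adjusted p = 0.138). Taf6l-KO was higher than Taf5l-KO by 0.19 ± 0.030 (edgeR adjusted p = 0.000566). In cMyc-KO it was measured at 1322, 1295 and 1265 CPM, against 1257, 1189 and 1251 CPM in WT-Myc, with every cMyc-KO library above every WT-Myc library by a small margin. That log2 fold change was 0.07 ± 0.042, and 0.11 ± 0.042 without cMyc-KO replicate 3.

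Genes of the chromosome that carries Eif4a1 were more often higher than lower in Taf6l-KO. Of 1300 genes tested on chromosome 11, 508 (39.1%) were higher and 84 (6.46%) were lower than in WT-Taf, with a median log2 fold change of 0.16, against 17.6% higher, 19.96% lower and a median of 0.00 over the other chromosomes. Eif4a1, at 0.25, lay within the middle 50% of chromosome 11 genes, which ran from -0.00 to 0.33. Against Taf5l-KO, 41.6% of the chromosome's genes were higher and 1.46% were lower, with a median of 0.21. The part of the chromosome in the Eif4a1 value was not tested. Eif4a2 lies on chromosome 16, where the median was 0.01 in Taf6l-KO.

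Eif4a2 encodes the second eIF4A. It was measured at 272, 287 and 283 CPM in Taf5l-KO and at 315, 323 and 311 CPM in Taf6l-KO, against 251, 247 and 253 CPM in WT-Taf. The 3 groups did not overlap, with Taf6l-KO the highest. Its log2 fold change was 0.17 ± 0.031 in Taf5l-KO (edgeR adjusted p = 0.000928) and 0.34 ± 0.031 in Taf6l-KO (edgeR adjusted p = 1.16e-06), and 0.17 ± 0.031 for Taf6l-KO against Taf5l-KO (edgeR adjusted p = 0.00157). In cMyc-KO it was measured at 153, 157 and 202 CPM, against 164, 150 and 136 CPM in WT-Myc, and cMyc-KO replicate 3 was the only library above the WT-Myc range. Its log2 fold change was 0.18 ± 0.116 with that library and 0.07 ± 0.067 without it.

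**Figure D3:**
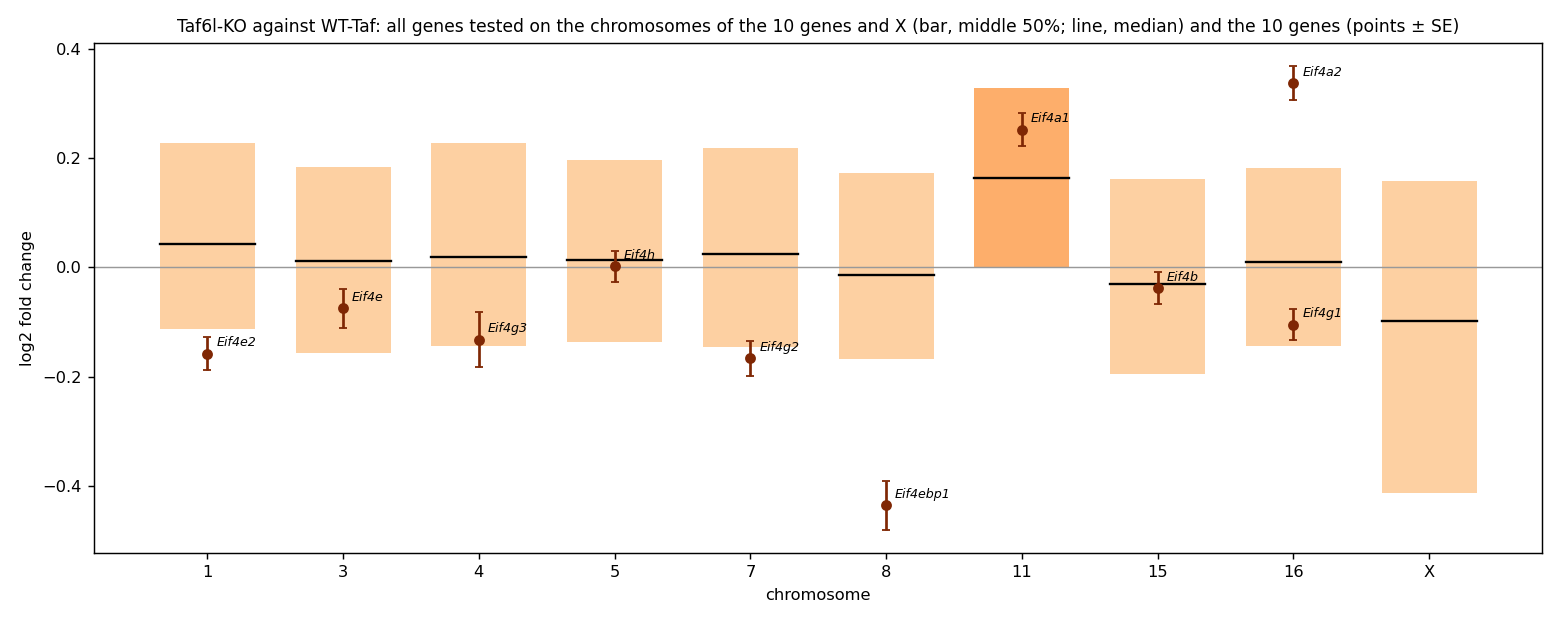
Log2 fold changes in Taf6l-KO against WT-Taf (vertical axis) on the chromosomes that carry the 10 genes and on X (horizontal axis). Bars span the middle 50% of all genes tested on a chromosome, lines mark the median, and points with SE bars are the 10 genes; chromosome 11, which carries Eif4a1, has a median of 0.16, and X, which carries none of the 10 genes, a median of -0.10.

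The helicase cofactor genes did not pass the test in either Taf knockout. Eif4b ranged from 676 to 697 CPM in Taf5l-KO, 644 to 663 CPM in Taf6l-KO and 660 to 684 CPM in WT-Taf, with log2 fold changes of 0.03 ± 0.029 (edgeR adjusted p = 0.538) and -0.04 ± 0.029 (edgeR adjusted p = 0.333). Eif4h ranged from 249 to 254, 247 to 250 and 246 to 253 CPM in the same groups. Its log2 fold changes were 0.02 ± 0.028 (edgeR adjusted p = 0.567) and 0.00 ± 0.028 (edgeR adjusted p = 0.962), with nominal 95% intervals within -0.05 and 0.08. In cMyc-KO both had log2 fold changes of -0.10: Eif4b was measured at 862, 852 and 886 CPM, against 938, 931 and 917 CPM in WT-Myc, and Eif4h at 409, 405 and 383 CPM, against 430, 419 and 436 CPM in WT-Myc. For both genes every cMyc-KO library was below every WT-Myc library, as happened in one direction or the other for 5 of the 10 genes and for 49.6% of all genes tested. Without cMyc-KO replicate 3, Eif4h had -0.05 ± 0.041 and Eif4b -0.10 ± 0.037.

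Of the cap-binding genes, Eif4e was measured at 156, 171 and 165 CPM in Taf5l-KO, against 178, 182 and 175 CPM in WT-Taf. All Taf5l-KO libraries were lower, and the log2 fold change was -0.12 ± 0.036 (edgeR adjusted p = 0.0190), a call lost without Taf5l-KO replicate 1 (edgeR adjusted p = 0.0674) or without WT-Taf replicate 2 (edgeR adjusted p = 0.0853). In Taf6l-KO, at 167, 171 and 171 CPM, it was also below the wild type in each library, but a log2 fold change of -0.08 ± 0.036 did not pass the test (edgeR adjusted p = 0.117). The cMyc-KO libraries had 164, 161 and 196 CPM, against 170, 157 and 151 CPM in WT-Myc, and the groups overlapped. The log2 fold change was 0.13 ± 0.086 with cMyc-KO replicate 3 and 0.05 ± 0.054 without it.

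Eif4e2, the gene of the 4EHP protein, went down in the Taf knockouts and was higher in cMyc-KO. It was measured at 236, 239 and 230 CPM in Taf5l-KO and 229, 236 and 229 CPM in Taf6l-KO, against 262, 254 and 258 CPM in WT-Taf. Both knockouts lay below every wild-type library and overlapped each other. The log2 fold change was -0.13 ± 0.030 in Taf5l-KO (edgeR adjusted p = 0.00344). It was -0.16 ± 0.030 in Taf6l-KO (edgeR adjusted p = 0.000812, and edgeR adjusted p = 0.0525 with library totals). The knockouts differed by -0.03 (edgeR adjusted p = 0.616, nominal 95% interval -0.08 to 0.03). In cMyc-KO it was measured at 378, 380 and 361 CPM, against 301, 300 and 321 CPM in WT-Myc, so that every cMyc-KO library was above every WT-Myc library. The difference on the log2 scale was 0.28 ± 0.047 and reached 0.32 ± 0.047 without cMyc-KO replicate 3.

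Eif4ebp1 (ENSMUSG00000031490, chromosome 8), the gene of the eIF4E inhibitor 4E-BP1, fell furthest of the 10 genes in both Taf knockouts. It was measured at 152, 157 and 138 CPM in Taf5l-KO and at 129, 135 and 129 CPM in Taf6l-KO, against 182, 172 and 178 CPM in WT-Taf. The 3 groups did not overlap, with Taf6l-KO the lowest. Its log2 fold change was -0.25 ± 0.044 in Taf5l-KO (edgeR adjusted p = 0.000594) and -0.44 ± 0.044 in Taf6l-KO (edgeR adjusted p = 3.04e-06), and -0.19 ± 0.044 for Taf6l-KO against Taf5l-KO (edgeR adjusted p = 0.00884; adjusted p = 0.131 with library totals). In cMyc-KO it was measured at 198, 189 and 159 CPM, against 175, 170 and 183 CPM in WT-Myc, and here replicate 3 was below, and the other replicates above, the WT-Myc range. The log2 fold change was 0.05 ± 0.082, and 0.16 ± 0.050 without that replicate.

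Counting genes whose libraries did not overlap gave 7 of the 10 for Taf5l-KO against WT-Taf, where 44.7% of all genes did so, 8 for Taf6l-KO against WT-Taf, where 49% did so, and 7 for Taf6l-KO against Taf5l-KO, where 34.7% did so. Of the genes called in Taf6l-KO against WT-Taf, 51.2% were higher with TMM scaling and 69.0% were higher with library totals. For Taf6l-KO against Taf5l-KO these percentages of the called genes were 45.8% and 83.1%. Library totals left 3 of the 10 genes called in Taf6l-KO against WT-Taf: Eif4a1, Eif4a2 and Eif4ebp1. The share of all genes called with library totals is not given here, so that count is a description.

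Levels of different genes can be set side by side only per length, and this was done as CPM per kilobase of the longest annotated protein-coding transcript. Eif4a1 was the highest of the 10 genes in every group, at 774 ± 22.8 CPM per kilobase in Taf5l-KO, 884 ± 8.57 in Taf6l-KO and 742 ± 3.45 in WT-Taf (SD, n = 3). Eif4g3 was the lowest in every group, at 5.36 ± 0.248 in Taf5l-KO, 3.88 ± 0.178 in Taf6l-KO, against 4.25 ± 0.0857 in WT-Taf, and at 1.01 ± 0.0171 in cMyc-KO and 3.73 ± 0.108 in WT-Myc. Between them, the order in WT-Taf ran Eif4g2, Eif4b, Eif4g1, Eif4a2, Eif4h, Eif4ebp1, Eif4e2 and Eif4e, and the libraries of Eif4a2 overlapped those of Eif4h, and those of Eif4h overlapped those of Eif4ebp1, while all other neighbours in that order separated. With the median coding length instead, Eif4g2 came first and Eif4g3 stayed last in every group. Eif4e then stood above Eif4e2 in WT-Taf, at 208 ± 4.24 against 153 ± 2.23 CPM per kilobase. With the longest length these were 35.7 ± 0.727 and 74.3 ± 1.09, the reverse order.

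The deposited FPKM values were not used to rank genes, because the lengths that they imply do not match the annotation. Dividing CPM by FPKM gave a length of 64.1 to 115 nucleotides for Eif4a1, whose shortest annotated transcript has 401, and 72.9 to 124 for Eif4a2, whose shortest has 386. For Eif4g3 the implied length ranged from 251 to 660 nucleotides between libraries, so that its FPKM differences hold a length term besides the count. Shared sequence also bears on some counts. Of the 31-letter words of Eif4a1 transcripts, 31.1% occur in transcripts of other annotated genes, 25.6% in Eif4a-ps4, and for Eif4a2 the share was 19.6%. For Eif4g3 it was 0.248%. The sources used here do not give how reads were divided between such copies, and Eif4a1 and Eif4a2 levels are uncertain to that extent.

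The balance within pairs of relatives was taken from the same levels per kilobase. Eif4g3 made up 0.473 ± 0.0172% of the summed Eif4g1 and Eif4g3 level per kilobase in cMyc-KO, against 1.72 ± 0.0664% in WT-Myc (SD, n = 3). It made up 3.22 ± 0.219% in Taf5l-KO and 2.67 ± 0.134% in Taf6l-KO, against 2.72 ± 0.0410% in WT-Taf. Taf5l-KO did not overlap with WT-Taf (two-sided exact permutation p = 0.1, the smallest that 3 against 3 libraries can give), and Taf6l-KO did overlap (exact permutation p = 0.8). Eif4a2 made up 11.8 ± 0.170% of the Eif4a1 and Eif4a2 level in Taf5l-KO and 11.7 ± 0.244% in Taf6l-KO, against 11.1 ± 0.167% in WT-Taf, without overlap in either comparison (exact permutation p = 0.1 each). Eif4e2 made up 67.3 ± 1.01% of the Eif4e and Eif4e2 level in Taf5l-KO and 66.2 ± 0.358% in Taf6l-KO, against 67.5 ± 0.711% in WT-Taf, where Taf5l-KO overlapped the wild type (exact permutation p = 0.9) and Taf6l-KO did not (exact permutation p = 0.1). The ratio of Eif4e to its inhibitor gene Eif4ebp1 was 0.442 ± 0.0353 in Taf5l-KO and 0.518 ± 0.0104 in Taf6l-KO, against 0.403 ± 0.0187 in WT-Taf, and here Taf6l-KO lay above the wild type in every library (exact permutation p = 0.1) and Taf5l-KO overlapped it (exact permutation p = 0.2). None of these shares can pass a threshold of 0.05 with 3 libraries a group, and their absolute size depends on the lengths used. With median coding lengths, Eif4e and not Eif4e2 was the larger of that pair in the Taf experiment.

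**Figure D4:**
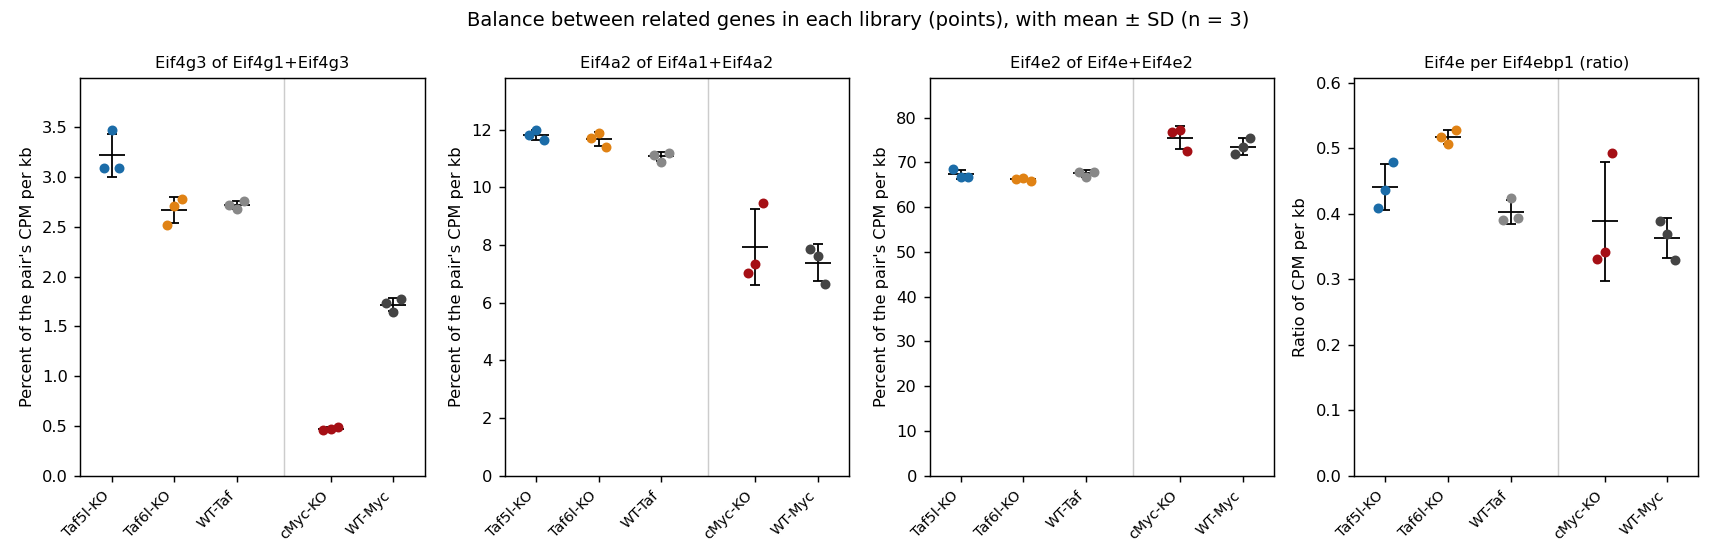
Balance between related genes by group (horizontal axes): the share of Eif4g3, Eif4a2 and Eif4e2 in the CPM per kilobase of their pair (percent) and the ratio of Eif4e to Eif4ebp1; points are libraries, bars the mean ± SD of 3 libraries. The Eif4g3 share is 0.473% in cMyc-KO and 1.72% in WT-Myc.

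The neighbours of Eif4g3 had log2 fold changes between -0.21 and 0.28 in cMyc-KO. Its 3 protein-coding neighbours on one side, Rap1gap, Alpl and Ece1, had log2 fold changes of 0.28, -0.10 and -0.21 in cMyc-KO, and those on the other, Hp1bp3, Sh2d5 and Kif17, of 0.23, 0.07 and -0.06. Of these 6 genes, Rap1gap and Hp1bp3 were higher (edgeR adjusted p = 0.0310 and 0.0304) and Ece1, which encodes endothelin-converting enzyme, was lower (edgeR adjusted p = 0.0208). Of all tested genes of chromosome 4, 16.5% were higher and 17.8% lower in cMyc-KO. In Taf5l-KO, where Eif4g3 rose by 0.34, 3 of 5 tested neighbours were higher: Rap1gap at 0.43, Ece1 at 0.38 and Hp1bp3 at 0.23. The share of higher calls among tested chromosome 4 genes was 20.1% there. In Taf6l-KO, where Eif4g3 did not pass the test, Ece1 (0.46) and Hp1bp3 (0.22) were higher and Alpl, the tissue-nonspecific alkaline phosphatase gene, was lower (-0.10). Around Eif4a2, the neighbour Rfc4 was lower in Taf5l-KO (-0.20) and in Taf6l-KO (-0.27) and St6gal1 was higher (0.85 and 0.61). Around Eif4ebp1, Got1l1 was the only 1 of 3 tested neighbours called in either Taf knockout, as higher (0.81 in Taf5l-KO and 1.08 in Taf6l-KO). Got1l1 RNA was scarce, at means of 1.41 CPM in Taf5l-KO, 1.70 in Taf6l-KO and 0.784 in WT-Taf. Of tested chromosome 8 genes, 15.2% were higher in Taf5l-KO and 15.9% in Taf6l-KO. Around Eif4g1, 1 of 6 tested neighbours was called in each Taf knockout, as lower, and around Eif4e2 1 of 2 was called in Taf5l-KO, as higher. Of tested genes on chromosome 16, which carries Eif4g1, 15.2% were lower in Taf5l-KO and 20.2% in Taf6l-KO. On chromosome 1, which carries Eif4e2, 23.3% were higher in Taf5l-KO.

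**Figure D5:**
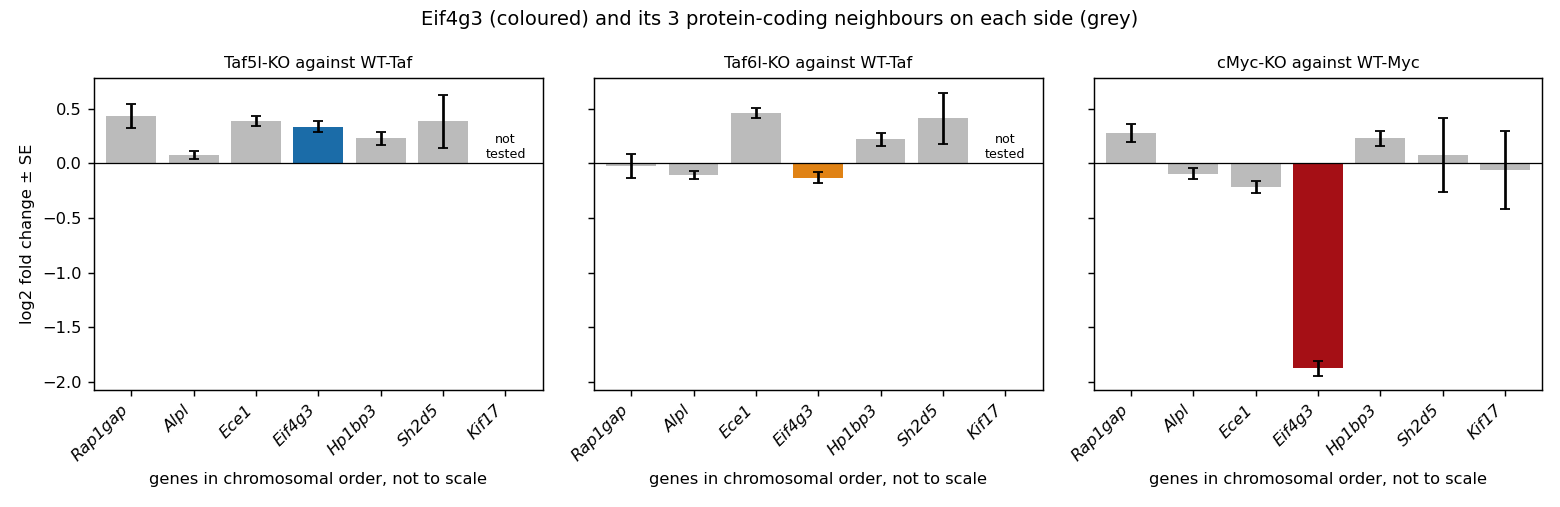
Log2 fold change ± SE (vertical axis) of Eif4g3 and of its 3 protein-coding neighbours on each side in chromosomal order (horizontal axis), in 3 comparisons. In cMyc-KO the neighbours lie between -0.21 and 0.28 and Eif4g3 at -1.88; Kif17 was not tested in the Taf experiment.

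Across the 15 libraries, the genes whose profile lay nearest to that of Eif4g3 were 4933427J07Rik, Gja1 and Ptch1, by the root mean square difference of log2(CPM + 1) from the own wild type among 8846 genes (0.126, 0.212 and 0.214). 4933427J07Rik, annotated as an antisense transcript on chromosome 2, averaged 3.99 CPM in cMyc-KO and 15.6 CPM in WT-Myc, and shares none of its 31-letter words with Eif4g3 transcripts. Gja1, the connexin 43 gene, and Ptch1, a Hedgehog receptor gene, had log2 fold changes of -1.85 and -1.49 in cMyc-KO. For Eif4ebp1 the nearest were Rps6ka1, a ribosomal S6 kinase gene, Bckdha and Pcolce (0.0553, 0.0576 and 0.0587), which fell by 0.38, 0.35 and 0.41 on the log2 scale in Taf6l-KO. These profiles contain the changes by which they were ranked, so the likeness is a description.

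For the lists that follow, the shares of all genes called are 33.2% in Taf5l-KO (17.4% higher and 15.9% lower), 37.2% in Taf6l-KO (19.1% and 18.2%) and 34.8% in cMyc-KO (15.2% and 19.5%), and list shares near these say nothing particular about a list. Other cap-binding and eIF4E-binding genes were examined as a list of 12 genes in the table. In Taf5l-KO 2 were higher and 3 were lower, in Taf6l-KO 1 was higher and 2 were lower, and in cMyc-KO 3 of 11 tested were called, all as lower, or 41.7%, 25% and 27.3% of those tested, with medians of -0.04, 0.01 and -0.04. Eif4ebp2, the gene of a second eIF4E inhibitor, was lower in Taf5l-KO (-0.26, edgeR adjusted p = 0.00114), in Taf6l-KO (-0.58, edgeR adjusted p = 8.66e-07) and in cMyc-KO (-0.81, edgeR adjusted p = 3.90e-05). Eif4enif1, whose product 4E-T carries eIF4E into the nucleus, was lower in Taf5l-KO (-0.17) and cMyc-KO (-0.40) and higher in Taf6l-KO than in Taf5l-KO (0.23). Cyfip2, whose product is a relative of the eIF4E-binding protein CYFIP1, was higher in Taf6l-KO (0.26) and lower in cMyc-KO (-0.66). Gigyf1 and Gigyf2, which encode partners of 4EHP, were higher in Taf5l-KO (0.15 and 0.23) and lower in Taf6l-KO than in Taf5l-KO (-0.16 each). Of the nuclear cap-binding genes, Ncbp1 was lower in Taf6l-KO (-0.10, edgeR adjusted p = 0.0239) and Ncbp2 was lower in Taf5l-KO (-0.13, edgeR adjusted p = 0.0419).

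Among 12 genes of poly(A)-binding proteins and partners of eIF4A or eIF4G, 4 were higher and 2 lower in Taf5l-KO, 3 were higher and 3 lower in Taf6l-KO, and 3 were higher and 1 lower in cMyc-KO, or 50%, 50% and 33.3%. Pdcd4, the gene of a tumour suppressor that binds and inhibits eIF4A, was higher in Taf5l-KO (0.25, edgeR adjusted p = 0.00559) and in Taf6l-KO (0.53, edgeR adjusted p = 8.32e-06), and its 0.27 in cMyc-KO did not pass the test (edgeR adjusted p = 0.0753). Paip2b, which encodes an inhibitor of poly(A)-binding protein, was higher in Taf5l-KO (0.12), in Taf6l-KO (0.36) and in cMyc-KO (0.48, edgeR adjusted p = 0.000920). Pabpc1, the main cytoplasmic poly(A)-binding protein gene, was higher in Taf5l-KO (0.10), lower in Taf6l-KO (-0.10) and lower in Taf6l-KO than in Taf5l-KO (-0.20, edgeR adjusted p = 0.000203), the same directions as Eif4g1. Mknk2, which encodes a kinase that phosphorylates eIF4E while held on eIF4G, was lower in Taf5l-KO (-0.13) and Taf6l-KO (-0.25). Ctif, a scaffold gene related to eIF4G that serves the nuclear cap complex, was higher in Taf5l-KO (0.48) and cMyc-KO (0.36). Eif4a3, the eIF4A relative of the exon junction complex, was higher in Taf6l-KO (0.19), the RNA helicase gene Ddx3x was lower in Taf5l-KO (-0.23) and Taf6l-KO (-0.17), and in cMyc-KO Pabpc4 was lower (-0.30) and Dhx29 higher (0.23).

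Genes of the steps that follow eIF4F were counted in the same way. Of 12 eIF3 subunit genes, which link eIF4G to the ribosome, 4 were called in Taf5l-KO, 6 in Taf6l-KO and 1, Eif3l (-0.18), in cMyc-KO, all as lower, or 33.3%, 50% and 8.33%, beside 15.9%, 18.2% and 19.5% of all genes called lower. Eif3g (-0.25) and Eif3c (-0.16) were lower in Taf6l-KO, and Eif3i in Taf5l-KO (-0.21). A list of 14 genes covered eIF2, eIF2B and the eIF2 kinases, which deliver the initiator tRNA and regulate that step. It also held Eif2a and Eif2d, whose products are separate factors and not part of eIF2 or eIF2B. Of these 14, 3 were higher and 4 lower in Taf5l-KO, and 2 higher and 4 lower in Taf6l-KO. In cMyc-KO 3 were higher and 2 lower, and the shares called were 50%, 42.9% and 35.7%. Eif2s3x was lower in Taf5l-KO (-0.50, edgeR adjusted p = 1.01e-07) and in Taf6l-KO (-0.46, edgeR adjusted p = 1.41e-07). Eif2ak2, the gene of the kinase PKR, was lower in Taf5l-KO (-0.37), Taf6l-KO (-0.37) and cMyc-KO (-0.42), and Eif2s2 was higher in cMyc-KO (0.52). Of 9 other initiation factor genes, 2 were higher and 2 lower in Taf5l-KO, 2 higher and 4 lower in Taf6l-KO, and 1 higher and 1 lower in cMyc-KO, or 44.4%, 66.7% and 22.2%. Among them Eif1ax was lower in Taf5l-KO (-0.23) and Taf6l-KO (-0.22) and Eif5b was higher in Taf5l-KO (0.21).

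The mTORC1 pathway controls whether 4E-BP1 holds eIF4E. Of 21 of its genes, 7 were higher and 3 lower in Taf5l-KO, 7 higher and 5 lower in Taf6l-KO, and 4 higher and 5 lower in cMyc-KO, or 47.6%, 57.1% and 42.9%, with medians of 0.04, -0.02 and 0.02. Deptor, which encodes an mTOR inhibitor, was higher in Taf5l-KO (0.82, edgeR adjusted p = 2.12e-08) and in Taf6l-KO (0.49, edgeR adjusted p = 2.61e-06). Rptor, the gene of the mTORC1 scaffold raptor, was higher in Taf6l-KO (0.34, edgeR adjusted p = 5.21e-06). Rragb, a RAG GTPase gene, was lower in Taf5l-KO (-0.38) and Taf6l-KO (-0.31). Ddit4, the gene of the stress-induced mTORC1 inhibitor REDD1, was lower in cMyc-KO (-2.04, edgeR adjusted p = 5.28e-06), as were Sesn2 (-0.72), a nutrient sensor gene, and Tbc1d7 (-0.53), a gene of the TSC complex.

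Without cMyc-KO replicate 3, 39.96% of all genes were called in cMyc-KO. The Eif3l call was then lost (-0.12, edgeR adjusted p = 0.0644), while the other list genes named here as called in cMyc-KO were called in the same direction, Eif2s2 at 0.40 ± 0.063 against 0.52 ± 0.111 with that library. Called members then numbered 4 higher and 3 lower among the poly(A)-binding and partner genes, 1 and 1 in eIF3, 6 and 2 in the eIF2 list, 3 and 2 among the other initiation factors, and 5 and 5 in the mTORC1 list, and the 3 cap-binding and eIF4E-binding genes were called as before.

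The 10 genes and these lists were also split into those on chromosome 11, those on X and the rest. Of 9 genes on chromosome 11 (Eif4a1, Eif4a3, Eif4enif1, Cyfip2, Larp1, Eif1, Eif5a, Rptor and Rps6kb1), 7 were called in Taf6l-KO against WT-Taf, all as higher, with a median log2 fold change of 0.19 over the 9, and 7 were called against Taf5l-KO, all as higher. Of all tested genes of that chromosome, 39.1% were higher against WT-Taf and 41.6% against Taf5l-KO. In Taf5l-KO against WT-Taf, 2 of these 9 were higher and 1 was lower, beside 11.8% and 21% of the chromosome's tested genes. All 4 genes on X (Ddx3x, Eif2s3x, Eif1ax and Rragb) were lower in Taf5l-KO and in Taf6l-KO, where 31.4% and 34.2% of all tested genes of that chromosome were lower. On the remaining chromosomes 19 of 77 genes were higher and 16 were lower in Taf5l-KO, and 10 were higher and 24 were lower in Taf6l-KO, with medians of -0.02 and -0.06. Of all genes tested off chromosome 11, 18.2% were higher and 16.1% lower in Taf5l-KO, and 17.6% and 19.96% in Taf6l-KO. In cMyc-KO, 3 of the 9 genes on chromosome 11 were called, all as lower, 1 gene on X was higher and 1 lower, and of 76 others 11 were higher and 10 lower. Of all tested genes of chromosome 11, 27.2% were lower there. The shares higher and lower were 16.2% and 16.9% on X, and 15.3% and 19.2% off chromosome 11. The part of the chromosome in the values of single genes was not tested.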

How the data were processed

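Gene-level estimated counts, all whole numbers, and FPKM were used as the authors deposited them. The submitters' processing notes list Salmon 0.8.2, DESeq2 1.14.1 and, as the genome build, mm9, and do not say what each was used for. Samples were grouped by title. The test was the quasi-likelihood test of edgeR 4.0.16 in R 4.3.3 (glmQLFit, glmQLFTest), after filterByExpr and TMM scaling, with Benjamini-Hochberg adjustment over all genes tested and a threshold of 0.05. The 9 Taf libraries shared a fit and the 6 Myc libraries had their own. CPM use TMM-scaled library sizes. An SE is the size of the log2 fold change divided by the square root of F. Intervals called 95% span 1.96 SE to each side. That factor comes from the normal distribution and makes no allowance for the few degrees of freedom of F. These intervals are therefore nominal, and narrower than true 95% intervals. Transcript lengths and chromosomes came from GENCODE M21 and promoters from RefSeq, both GRCm38, so no mm9 position was used. Members, lists and the naming rule were chosen with earlier results of these data known. Named were the 10 genes, the targeted genes, called members of the 2 nearest lists, up to 3 called genes of smallest p per other list and comparison, 3 neighbours a side of Eif4g3 and of the genes called most often, and the 3 nearest profiles of Eif4g3 and Eif4ebp1. As alternatives, scaling was by RLE or by library totals, the filter was dropped, and the test was DESeq2 1.42.0, limma 3.58.1 on log2(FPKM + 1) and log2(FPKM + 0.1) for a mean FPKM of at least 0.5 or unfiltered, the replicate block, each library left out, and all 15 libraries in a single fit. The lists without cMyc-KO replicate 3, and levels per kilobase from transcript lengths, were added after seeing the data, the levels because the deposited FPKM of some of the 10 genes, Eif4a1 and Eif4a2 among them, imply lengths below the shortest annotated transcript. On simulated counts for Taf5l-KO against WT-Taf over 15492 genes, the test recovered 67.2% of 1.5-fold and 95.7% of 4-fold changes. Of its 168 calls there, 4 fell on unchanged genes. For cMyc-KO against WT-Myc over 14396 genes, it recovered 60.3% and 95.6%, and 17 of 182 calls fell on unchanged genes. Columns of the deposited TPM table were not used, since its header could not be matched to samples. Figures were drawn with matplotlib 3.10.9 in Python 3.11.15.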

Additional observations from a re-analysis of the deposited data

Results flagged for a closer look

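The 6 genes below differed between the Taf5l and Taf6l knockouts by a direct test (edgeR, all 15743 genes), which is also the test of whether their effects against the common wild type differ. Eif4g3 had a log2 fold change of -0.47 for Taf6l-KO against Taf5l-KO, being higher than WT-Taf in every Taf5l-KO library and lower than WT-Taf in every Taf6l-KO library. Eif4g1 had -0.19, with the same arrangement of libraries. Eif4g2 had -0.12 and Eif4ebp1 -0.19, both lowest in Taf6l-KO. Eif4a1 had 0.19 and Eif4a2 0.17, both highest in Taf6l-KO. For Eif4a1, genes of chromosome 11 had a median of 0.21 in the same comparison, and the part of that shift was not tested.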

How the results depend on the processing

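Of the 10 genes, 6, 6, 6 and 2 were called in Taf5l-KO against WT-Taf, Taf6l-KO against WT-Taf, Taf6l-KO against Taf5l-KO and cMyc-KO against WT-Myc. The cMyc-KO counts, here and under the alternatives, only describe how the values move, since the set was chosen on that comparison. Leaving out single libraries gave 4 to 6, 6 to 7, 5 to 6 and 2 to 3. Library totals gave 3 in Taf6l-KO against WT-Taf. On FPKM with limma, either pseudocount gave 2, 3 and 3 in the Taf comparisons, and no filter gave 2, 2 and 2, and 1 in cMyc-KO. A single fit of all 15 libraries gave 3 in Taf5l-KO, 3 in Taf6l-KO against Taf5l-KO and 5 in cMyc-KO. The cause of these moves was not tested. Calls among all genes are given below for some settings only. For the others, a move of the 10 genes cannot be told from a move of all calls. Same-numbered libraries correlated at most at 0.06, so the numbers do not pair them, and the replicate block left 6, 6, 6 and 2 called, while calls among all genes in cMyc-KO numbered 3139 with the block, against 5064. Between cMyc-KO and WT-Myc, same-numbered libraries correlated at -0.49 to -0.12 and differently numbered ones at -0.24 to 0.39. DESeq2 called 3559, 4086 and 1831 genes in the Taf comparisons, and FPKM with limma 2633, 3118, 926 and 3164 in all 4, against 5234, 5861, 2938 and 5064 in the edgeR test. Without the FPKM filter limma called 2216, 2653, 722 and 2705, and the single fit of 15 libraries called 1647 in Taf6l-KO against Taf5l-KO. Uncalled values near 0 turned. Eif4h in Taf6l-KO against WT-Taf was -0.01 with RLE (-0.0081), DESeq2 (-0.011) and all 15 libraries (-0.0069), -0.0036 with no filter, -0.097 on FPKM, and -0.0067 to 0.015 with single libraries left out, below 0 without Taf6l-KO replicate 2 or WT-Taf replicate 2 or 3 (-0.0047). On FPKM it was -0.16 in Taf5l-KO and 0.061 between the knockouts. With library totals, between the knockouts, Eif4h was 0.070, Eif4e2 0.067 and Eif4b 0.027, and Eif4b was 0.031 in Taf6l-KO against WT-Taf. In cMyc-KO, Eif4g3 ranged from -2.08 to -1.84 over 15 settings. Of the called values, those of Eif4ebp1 and Eif4a2 in Taf6l-KO against WT-Taf, Eif4ebp1 in Taf5l-KO and Eif4g3 between the knockouts stayed past the threshold in all 15 settings. At a biological coefficient of variation of 10.2% in the Myc experiment, against 4.23% in the Taf experiment, smaller changes were detectable in the Taf experiment.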
